A study of Mus musculus with 20 samples.

Results

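The first hour of transforming growth factor β1 (TGFβ1) was examined in Hepa1-6, an established mouse hepatoma line of C57L origin. The members of this comparison are the 4 arrays at 1 h out of the 20 arrays of the time course: 2 cultures that had received 1 ng/ml TGFβ1 and 2 that had received nothing, chosen by the treatment and time in their titles. Both groups had been in medium free of growth factors since 4 h before the start, so the untreated cells are starved cells of the same age in culture, not growing cells. The replicates are labelled as biological duplicates, the study used 1 line, and each array reports the RNA of a whole culture. Of 18193 genes measured, each was represented by the probe set with the highest mean over the 20 arrays. Values are log2 RMA values, a scale on which a difference of 1 is a 2-fold change, and differences are TGFβ1 minus untreated at the same hour with the standard error (SE) of the fit over all groups.

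TGFβ1 binds a pair of receptor kinases, the type II receptor Tgfbr2 and the type I receptor Tgfbr1, which phosphorylate the transcription factors Smad2 and Smad3. These join Smad4, enter the nucleus and act on promoters and enhancers within minutes, without new protein synthesis, so transcripts that move in the first hour include direct SMAD targets and the immediate early genes of the kinase pathways the same receptors can start. Among the early products are the pathway's own inhibitors. In liver, TGFβ1 is known for holding back the division of hepatocytes, for inducing their death and for driving fibrosis.

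The duplicates correlated at 0.9963 (treated) and 0.9966 (untreated) over all probe sets, and array medians lay between 5.15 and 5.21. Of the hepatocyte markers, albumin (Alb) read 11.86 and 11.97 in the untreated and 11.72 and 11.90 in the treated arrays, and alpha-fetoprotein (Afp) read 12.93 and 12.94 against 12.70 and 12.78. The other hepatocyte markers lay far lower in untreated cells, with Hnf4a at 6.71 and 6.64 and Apoa1 at 6.26 and 5.72. Apob was at 5.45 and 5.08, Ttr at 5.73 and 5.30, and Ahsg at 4.87 and 4.58. Over all arrays, 4 of the 7 markers had a mean above the median of all genes, 6.31. The line thus carries part of the hepatocyte programme. The summed level of the 7 hepatocyte markers measured was 13.53 to 13.56 (log2) in untreated and 13.33 to 13.44 in treated arrays, with 1 called lower. None of the 6 stellate cell, 6 Kupffer cell or leukocyte and 6 endothelial markers was called, with summed levels of 7.97 to 7.99 against 7.83 to 7.85, 8.19 to 8.20 against 8.11 to 8.22, and 6.97 to 7.03 against 6.64 to 6.99. Of the 4 cholangiocyte markers 1 was called, Sox9, and their sum was 11.16 to 11.20 in untreated and 11.60 in both treated arrays. The part of these sums in the results below was not tested, and in RNA from whole cultures fewer cells of a type and less RNA per cell cannot be told apart.

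After 1 h, 348 genes (1.91% of those tested) were higher and 59 (0.324%) were lower in treated cells, by limma at an adjusted p under 0.05. The arrays of both groups did not overlap for any of these genes. A call with 2 arrays a group already favours separated arrays, and the share without overlap over all genes was not counted. The separation therefore adds no support to the calls. At 0 h, where the labels describe both arms as equivalent, there were 0 calls (0%) by the same limma test. Without adjustment, 740 genes at 0 h and 1786 at 1 h had p under 0.05. The rises were the larger changes: the median fold was 1.48 among genes called higher and 1.36 among those called lower, 58 rises and 5 falls reached 2-fold, and 12 rises and 2 falls reached 4-fold. Most of the response was small, with 185 rises and 43 falls under 1.5-fold and called differences down to 0.17 and 0.18. The median difference over all genes was −0.013 with an SD of 0.19. For 8 rises and 3 falls the untreated mean lay under 5, where the background is not known and the fold may be compressed.

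**Figure D1:**
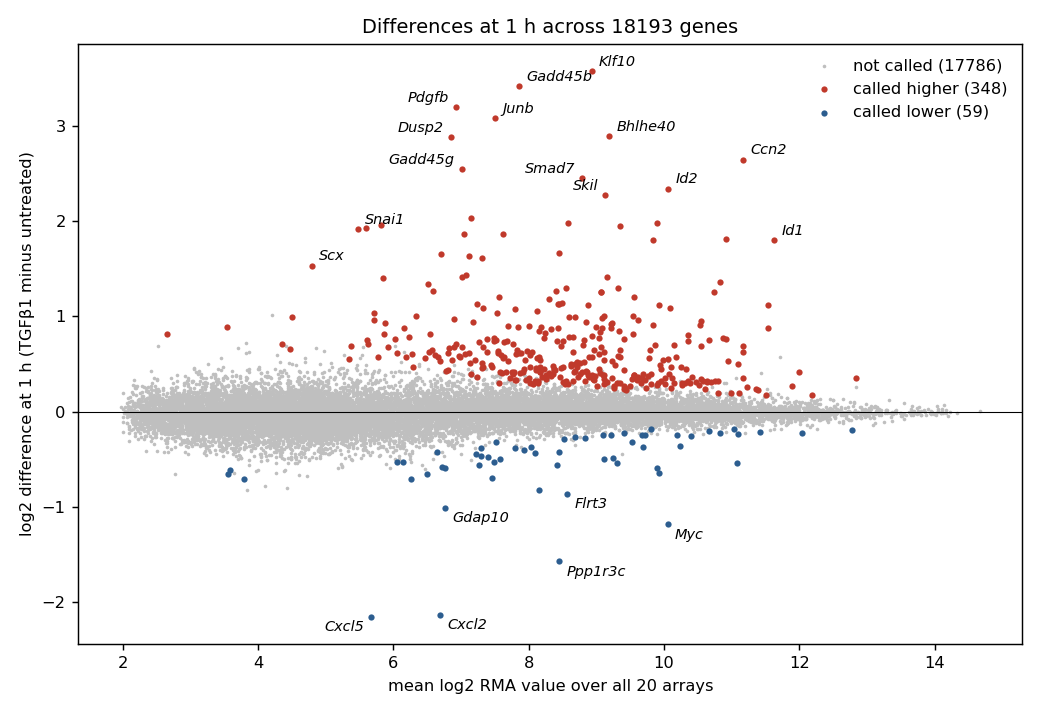
Log2 difference at 1 h (TGFβ1 minus untreated, vertical axis) against the mean log2 RMA value over all 20 arrays (horizontal axis) for each of the 18193 genes; red points are the 348 genes called higher, blue points the 59 called lower and grey points the rest. The rises reach a difference of 3.57 (Klf10) and the falls −2.15 (Cxcl5).

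Among the ligands of the family and the proteins that process them, 2 of 19 measured genes rose and none fell. The median difference was 0.10, beside −0.01 for all genes. Counts of list members at 1 h, here and below, stand beside 1.91% of all genes called higher and 0.324% called lower. With so few falls over all genes, nothing is read from a list with none lower. Bmp4, a ligand of the bone morphogenetic protein branch, was higher by 0.59 ± 0.09 (SE; adjusted p = 3.30e-04), and Furin, the protease that cuts TGFβ precursors, by 0.58 ± 0.09 (adjusted p = 5.31e-04). The ligand genes Tgfb1, Tgfb2 and Tgfb3 differed by 0.12, 0.06 and 0.11 with SEs of 0.17 to 0.19 and were not called. The inhibin and activin genes were not called either, with Inha at 0.10, Inhba at −0.19, Inhbb at −0.12, Inhbc at −0.12 and Inhbe at 0.30. The other BMP genes lay between −0.04 (Bmp2) and 0.07 (Bmp1), with Bmp6 at 0.00 and Bmp7 at 0.06. Of the latent TGFβ binding proteins, which hold the ligand in the matrix, Ltbp1 differed by 0.18, Ltbp2 by 0.27, Ltbp3 by 0.35 (adjusted p = 0.116) and Ltbp4 by −0.16, and the activator Thbs1 by 0.12. By 3 h Furin (1.31), Thbs1 (0.82) and Ltbp3 (0.49) were called higher, while Bmp4 was at −0.13.

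Of 15 receptors and coreceptors, 2 rose by small amounts and the median was 0.08. The type I receptor Tgfbr1 was higher by 0.39 ± 0.06 (adjusted p = 6.79e-04) and Acvr1, a type I receptor of the BMP and activin branches, by 0.27 ± 0.06 (adjusted p = 0.0102). With the mean of all probe sets of a gene neither was called, and the call of Acvr1 was also lost with the 4 arrays at 1 h alone, with no variance trend, without treated replicate 2 and without untreated replicate 2. The type II receptor that binds TGFβ1, Tgfbr2, differed by 0.04 and the coreceptor Tgfbr3 (betaglycan) by 0.20. The remaining members were not called: Acvr1b at 0.08, Acvr2a at −0.03, Acvr2b at 0.09, Acvrl1 at −0.24, Bmpr1a at −0.02, Bmpr1b at −0.18, Bmpr2 at 0.19, Eng at 0.07, Cd109 at 0.15, Hjv at 0.11 and Amhr2 at −0.07. None of the 13 SMADs and cofactors was called at 1 h by limma, with a median of 0.08; with the mean of all probe sets, 1 was called higher. The receptor-regulated Smad2 and Smad3 differed by −0.07 and 0.11, those of the BMP branch, Smad1, Smad5 and Smad9, by 0.17 (adjusted p = 0.0802), 0.00 and −0.34, and the shared partner Smad4 by 0.00. The anchor Zfyve9 was at 0.18, the acetyltransferases Ep300 and Crebbp at 0.08 and 0.12, the DNA-binding partner Foxh1 at −0.17, and Trim33, Sbno1 and Zbtb7a at 0.06, 0.08 and 0.16. Calls among the ligands, receptors and SMADs thus numbered 4, all higher.

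Of 24 feedback inhibitors measured, 9 rose and none fell (median 0.11), beside 1.91% of all genes called higher and 0.324% called lower. Smad7 blocks the receptor and brings ubiquitin ligases to it. It read 8.27 and 8.30 in the untreated and 10.76 and 10.71 in the treated arrays, a rise of 2.45 ± 0.07, or 5.48-fold (adjusted p = 6.43e-16). Smad6, its counterpart in the BMP branch, rose by 1.86 ± 0.10 (3.64-fold). Skil encodes SnoN, a corepressor that binds SMADs at their targets, and rose by 2.27 ± 0.07 (4.82-fold). Its relative Ski was higher by 0.75 and the homeobox corepressors Tgif2 and Tgif1 by 1.00 and 0.77. Fstl3, a secreted protein that traps activins, rose by 1.34 ± 0.11, and follistatin (Fst) by 0.32. The ubiquitin ligase Smurf2 was higher by 0.25 (adjusted p = 0.0132). Ski, Tgif1, Fst and Smurf2 lie outside the first 5 of their list and were named after their values were seen. The calls of Fst and Smurf2 were lost under 2 and 6 of the 12 alternatives. Pmepa1 and Ldlrad4, membrane proteins that hold back SMAD activation, were at 0.09 and −0.26 and were not called at 1 h, and Ldlrad4 reached a difference of 3.68 at 3 h.

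The gene with the largest difference was Klf10, a zinc finger repressor also called TGFβ-inducible early gene. It read 8.13 and 8.08 in untreated and 11.60 and 11.75 in treated cells, a rise of 3.57 ± 0.07 or 11.9-fold (adjusted p = 3.72e-18). Gadd45b, a small protein that activates the kinase MEKK4 in stress signalling, read 7.37 and 7.12 against 10.69 and 10.63, a rise of 3.41 ± 0.09 or 10.7-fold. Its relative Gadd45g read 6.59 and 6.54 against 9.11 in both treated arrays (2.54 ± 0.10, 5.82-fold). For all 3 genes the lowest treated value was more than 2 units above the highest untreated one. The basic helix-loop-helix repressor Bhlhe40, which acts in the clock and in differentiation, read 8.12 and 8.38 against 11.14 and 11.13 (2.89 ± 0.07, 7.39-fold). The phosphatase Dusp2, which switches off ERK and p38 in the nucleus, read 6.21 and 6.46 against 9.11 and 9.33 (2.88 ± 0.12, 7.38-fold).

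**Figure D2:**
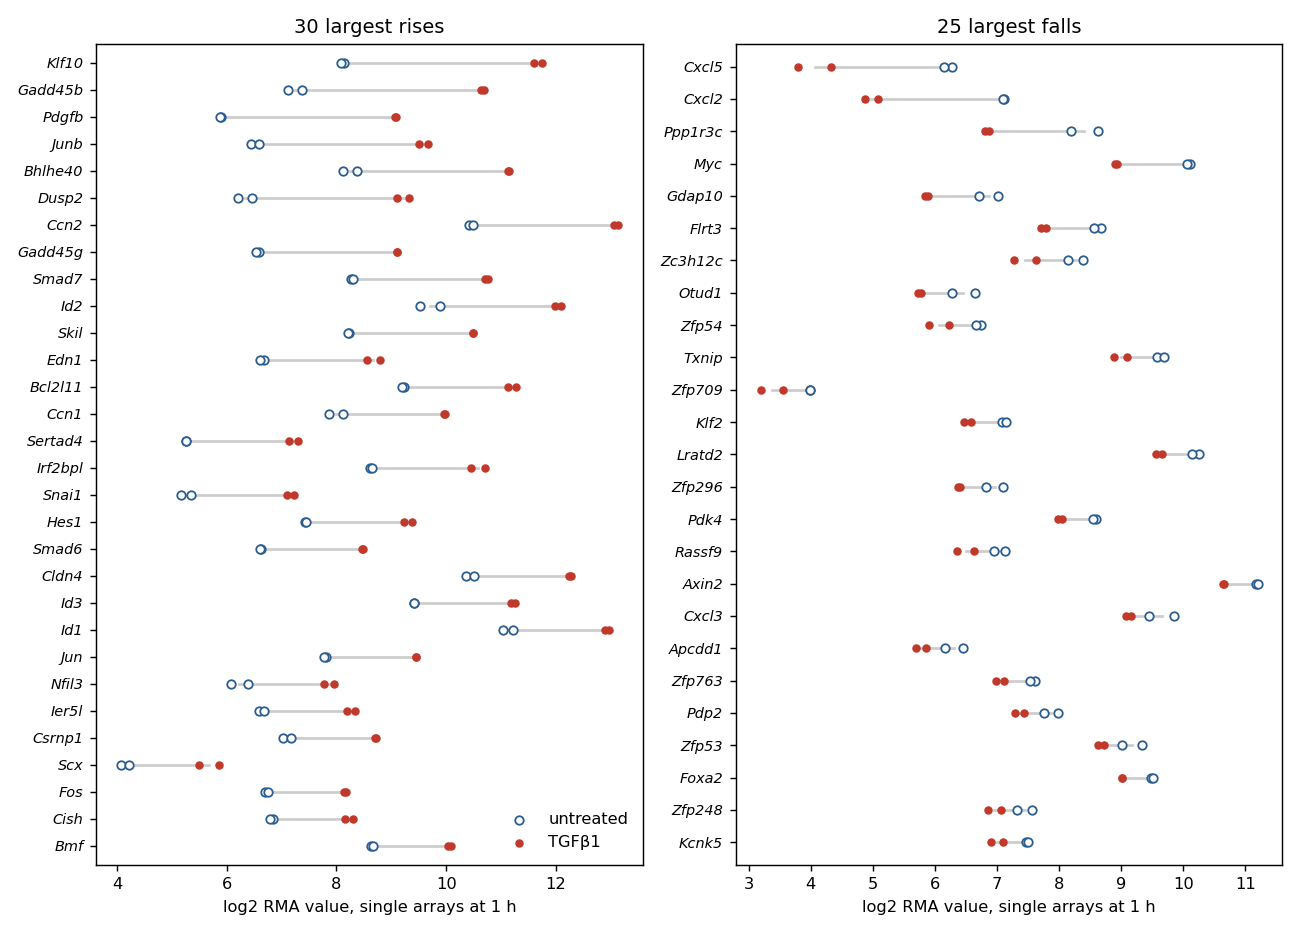
Log2 RMA values of the single arrays at 1 h for the 30 named genes with the largest rises (left) and the 25 with the largest falls (right), open blue circles for untreated and filled red circles for TGFβ1, joined by a grey line between the group means. Genes were ranked by size among called genes without overlap between the groups, so neither the gaps nor their order is a result. Differences run from Klf10 (3.57) to Bmf (1.41) on the left and from Cxcl5 (−2.15) to Kcnk5 (−0.47) on the right.

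The AP-1 list holds subunits of the dimeric factor made of JUN and FOS proteins, together with the small MAF proteins. It had 9 of 16 members higher and none lower, beside 1.91% and 0.324% of all genes. Its median was 0.48, the largest list median at 1 h, among lists chosen with earlier results of these data known. Junb read 6.44 and 6.58 in untreated and 9.67 and 9.51 in treated arrays, a rise of 3.08 ± 0.12 or 8.43-fold (adjusted p = 1.02e-13). Jun rose by 1.66 (3.15-fold) and Fos by 1.43 (2.70-fold). Fosl2 and Mafk were each higher by 0.89. The other 4, Maff, Fosl1, Jdp2 and Mafg, were higher by 0.78 to 0.25 and were named after their values were seen. Of these, Fosl1, Jdp2 and Mafg each lost the call under at least 1 alternative, Mafg under 8 of 12. Jdp2 and Fos are neighbours in the genome.

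The Id and helix-loop-helix list had 6 of 15 members higher and none lower, beside 1.91% and 0.324% of all genes. Its median was 0.12. Id proteins lack a DNA-binding region and block helix-loop-helix activators, and they are classical targets of the BMP branch. Id2 read 9.88 and 9.53 against 12.10 and 11.99, a rise of 2.34 ± 0.10 or 5.05-fold (adjusted p = 3.50e-13), and Id1 and Id3 rose 3.47-fold and 3.48-fold. Hes1, the repressor downstream of Notch, rose by 1.86 (3.64-fold), and Atoh8 by 0.88. Among the other transcription factors, 10 of 23 members of the list of EGR, IER, NR4A and related early genes rose and 1 fell, Plk2 (−0.21). Ier5l read 6.59 and 6.68 against 8.19 and 8.33 (1.63 ± 0.13, 3.09-fold). Csrnp1 rose by 1.61, Ier3 by 0.91, Ier5 by 0.80 and the kinase Sgk1 by 0.75. The call of Plk2 was lost under 5 alternatives.

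Of 20 KLF and SP zinc finger factors, 6 rose and 1 fell, beside 1.91% and 0.324% of all genes. After Klf10 came Klf9 (1.36), Klf4 (0.69), Klf7 (0.51) and Klf3 (0.45), whereas Klf2 was lower (−0.59), a call that was lost without treated replicate 1 and without untreated replicate 2. The list of factors of epithelial to mesenchymal transition, with SOX and RUNX genes, had 3 of 20 higher. Snai1, the repressor of E-cadherin, read 5.34 and 5.17 against 7.10 and 7.23, a rise of 1.91 ± 0.18 or 3.77-fold (adjusted p = 2.63e-07). Sox9 rose by 1.13 and Sox4 by 0.35. Snai2, Zeb1, Zeb2 and Twist1 were at −0.29, 0.05, 0.28 and 0.03, and E-cadherin (Cdh1), N-cadherin (Cdh2) and vimentin (Vim) at −0.31, −0.01 and 0.03, none of them called. Scx, a helix-loop-helix factor of tendon that is in no list, rose by 1.53. Nfil3, a repressor that opposes the clock factor DBP, rose by 1.65 and was the single called member of the 16 genes of the clock list, which does not hold Bhlhe40.

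Hepatocyte transcription factors moved in both directions, with 4 of 18 higher and 1 lower. The FOXA factors open chromatin at liver genes. Foxa1 read 9.08 and 9.07 in untreated and 9.93 and 9.97 in treated arrays, a rise of 0.88 ± 0.05 or 1.84-fold (adjusted p = 2.91e-10). Foxa3 rose by 0.78, whereas Foxa2 fell by 0.49 on the log2 scale (adjusted p = 1.01e-05). Cebpb, the acute-phase factor, was higher by 0.76 and Tbx3 by 0.47. Hnf4a differed by −0.27 and was not called (adjusted p = 0.502). Of 17 secreted plasma proteins, 1 was called, Afp (−0.19), and that call was lost under 7 of the 12 alternatives.

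The promoters of several leading rises are printed to show which known binding letters stand next to the start of genes that moved within the hour. RefSeq windows of the assembly GRCm38.p6 were used for 21 of the 30 leading rises, the others lacking a window or lying on a chromosome that was left out. The 250 bases before the start were searched on both strands for the SMAD box CAGAC, the GC-rich SMAD motif GGCGCC, the AP-1 site TGANTCA and the cyclic AMP element TGACGTCA. Also searched for were the E-box CACGTG, the TEAD motif GGAATG, the TATA motif TATAAA and the SMAD palindrome GTCTAGAC, which contains part of the SMAD box. Capitals mark every match, 5′ to 3′ along the gene's strand. The 6 windows shown were chosen after the matches were seen, to include many and no matches. They are Gadd45b (chr10:80929841-80930090, plus strand), Junb (chr8:84978749-84978998, minus strand), Dusp2 (chr2:127335909-127336158, plus strand), Edn1 (chr13:42301226-42301475, plus strand), Cldn4 (chr5:134946935-134947184, minus strand) and Id3 (chr4:136143572-136143821, plus strand).
Gadd45b: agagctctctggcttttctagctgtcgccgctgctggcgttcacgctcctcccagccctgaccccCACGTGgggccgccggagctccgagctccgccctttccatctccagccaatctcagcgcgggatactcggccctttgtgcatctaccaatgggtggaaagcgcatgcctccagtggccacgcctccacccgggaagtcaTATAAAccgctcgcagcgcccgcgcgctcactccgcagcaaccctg
Junb: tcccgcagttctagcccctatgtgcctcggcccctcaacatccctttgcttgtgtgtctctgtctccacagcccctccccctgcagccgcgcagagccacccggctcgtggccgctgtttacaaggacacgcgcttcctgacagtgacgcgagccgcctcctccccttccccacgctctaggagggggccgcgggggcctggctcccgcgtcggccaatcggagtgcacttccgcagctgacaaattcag
Dusp2: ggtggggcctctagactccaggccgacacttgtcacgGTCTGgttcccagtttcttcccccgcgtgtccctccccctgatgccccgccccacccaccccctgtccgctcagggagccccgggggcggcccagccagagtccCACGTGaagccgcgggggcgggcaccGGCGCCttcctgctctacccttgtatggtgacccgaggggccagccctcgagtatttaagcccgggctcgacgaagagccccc
Edn1: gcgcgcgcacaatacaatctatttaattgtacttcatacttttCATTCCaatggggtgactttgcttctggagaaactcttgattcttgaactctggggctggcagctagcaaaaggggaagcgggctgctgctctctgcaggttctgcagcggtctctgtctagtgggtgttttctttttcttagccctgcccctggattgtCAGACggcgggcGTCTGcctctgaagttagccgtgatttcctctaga
Cldn4: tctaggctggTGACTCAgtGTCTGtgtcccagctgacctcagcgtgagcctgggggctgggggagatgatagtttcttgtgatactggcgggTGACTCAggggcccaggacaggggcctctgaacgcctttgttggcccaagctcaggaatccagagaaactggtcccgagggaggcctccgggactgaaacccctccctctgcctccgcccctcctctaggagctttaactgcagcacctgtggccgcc
Id3: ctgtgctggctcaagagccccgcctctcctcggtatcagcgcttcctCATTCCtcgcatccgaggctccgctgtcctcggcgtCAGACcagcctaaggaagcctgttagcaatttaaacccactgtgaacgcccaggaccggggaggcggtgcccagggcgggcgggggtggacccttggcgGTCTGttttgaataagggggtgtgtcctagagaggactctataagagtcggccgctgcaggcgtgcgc

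The 6 windows differed in their matches. Gadd45b has an E-box that begins 185 bases and a TATA motif 46 bases before the start, and no SMAD letters in the window. Junb, whose transcript rose 8.43-fold, has none of the letters searched. Dusp2 has a SMAD box 213, an E-box 109 and a GC-rich motif 83 bases before the start. Edn1, the gene of the vasoconstrictor endothelin 1, rose 4.08-fold and has a TEAD motif 207 and SMAD boxes 47 and 35 bases before the start. Cldn4, a tight junction claudin, rose 3.52-fold and has AP-1 sites 240 and 158 and a SMAD box 231 bases before the start. Id3 has a TEAD motif 203 and SMAD boxes 167 and 68 bases before the start.

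Windows were at hand for 14452 of the 18193 tested genes, 272 of the 348 called higher and 48 of the 59 called lower. Some genes had several windows. Over all 18109 windows, 41.5% held the SMAD box, beside 43.9% (168 of 383) of the windows of genes called higher and 38.3% of those called lower. The GC-rich motif was in 14.1% of all windows, 20.1% (77 of 383) of those of genes called higher, 22.6% (12 of 53) of those of 2-fold rises and 1.67% (1 of 60) of those of genes called lower. The windows of genes called higher also held more G and C, with a median of 63.2% against 57.6% for all windows and 56.8% for genes called lower, and the part of this in the motif shares was not tested. The AP-1 site was in 5.62% of all windows and 4.96% of those of genes called higher. The palindrome was in 0.193% of all windows, 0.783% (3 of 383) of those of genes called higher and 1.67% (1 of 60) of those of genes called lower. The cyclic AMP element was in 2.12% and 2.61%, the E-box in 7.38% and 7.31%, the TEAD motif in 11.5% and 13.3%, and the TATA motif in 8.81% and 8.09%. These are descriptions of letters, with no test, and a match is not a bound site.

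Of 18 MAP kinase phosphatases, Sprouty and Spred genes, which restrain kinase signalling, 5 rose, 13 were not called and none fell. The 5 are all dual-specificity phosphatases: after Dusp2 came Dusp1 (1.30), Dusp6 (0.53), Dusp14 (0.47) and Dusp4 (0.33), and the call of Dusp4 was lost without treated replicate 2 and without untreated replicate 1. Of 21 stress genes of the Gadd45 list, 6 rose and 1 fell. Behind Gadd45b and Gadd45g were the mTOR inhibitor Ddit4 (1.12), the pseudokinase Trib3 (0.70) and Gadd45a (0.38), and Ddit4l was lower (−0.32). Proteins that shorten the life of early mRNAs were also among the rises, with 5 of 16 members of the mRNA decay list higher. Zfp36l2 read 10.65 and 10.62 against 11.86 and 11.90 (1.25 ± 0.05, 2.38-fold), Zfp36 rose by 0.61, Rc3h1 by 0.56, Btg2 by 0.36 and Zfp36l1 by 0.35, with the call of Btg2 lost without treated replicate 1. The RNase relative Zc3h12c moved the other way: it read 8.39 and 8.15 against 7.28 and 7.63, lower (−0.82 ± 0.11).

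The NF-κB list had 3 of 18 members higher and none lower, beside 1.91% and 0.324% of all genes. The IκB relative Bcl3 read 7.39 and 7.25 against 8.52 and 8.54 (1.20 ± 0.09, 2.30-fold), Nfkbia rose by 0.88 and the ubiquitin-editing enzyme Tnfaip3 by 0.63. Among 25 cytokine and IL-6 family genes, 5 rose. Cish, an inhibitor of STAT5 signalling, read 6.84 and 6.79 against 8.30 and 8.16 (1.41 ± 0.10, 2.66-fold). Socs3, the inhibitor of gp130 receptors, rose by 1.12, the macrophage factor Csf1 by 1.13, the ligand Clcf1 by 1.00 and the kinase Pim1 by 0.90. Chemokines split, with 4 of 20 higher and 3 lower. Cxcl10 rose by 1.09, Cxcl11 by 0.75, Ccl2 by 0.54 and Cx3cl1 by 0.42, and all but Cxcl10 lost the call under 3 or more alternatives. The neutrophil chemokines Cxcl5, Cxcl2 and Cxcl3 were the lower ones. Cxcl10 and Cxcl11 are neighbours in the genome.

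Growth factor genes gave 1 of the largest rises. Pdgfb, the B chain of platelet-derived growth factor, read 5.89 and 5.88 in untreated and 9.08 and 9.07 in treated arrays, a rise of 3.19 ± 0.10 or 9.13-fold (adjusted p = 4.89e-15). The EGF receptor ligand Hbegf rose by 1.09, Vegfa by 0.54 and Pdgfa by 0.30, so 4 of 23 growth factor genes were higher and none lower. The call of Vegfa was lost under 3 alternatives and that of Pdgfa without untreated replicate 1. Of 24 receptor tyrosine kinases, ephrins and inhibitors, 5 rose. The ephrin Efna1 read 5.88 and 5.83 against 7.05 and 7.18 (1.26 ± 0.11, 2.40-fold), Lrig3 rose by 0.89, Epha2 by 0.50, the EGF receptor inhibitor Errfi1 by 0.31 and Erbb3 by 0.29. Erbb3 lost the call under 9 of 12 alternatives and Errfi1 under 1.

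The list of YAP and TEAD targets had 6 of 23 members higher and none lower, beside 1.91% and 0.324% of all genes. Ccn2 (connective tissue growth factor) read 10.41 and 10.48 against 13.05 and 13.13, a rise of 2.64 ± 0.06 or 6.25-fold (adjusted p = 5.47e-18). Ccn1 rose 3.93-fold, the kinase Nuak2 by 0.98, tissue factor F3 by 0.76 and Ankrd1 by 0.53. The call of F3 was lost without untreated replicate 2. Of 22 genes of matrix, proteases and their inhibitors, 1 was called at 1 h, the urokinase receptor Plaur at 0.33, beside 1.91% of all genes, and without treated replicate 2 it was not called (adjusted p = 0.0506, the highest over its alternatives). At 3 h, when 6.73% of all genes were called higher and 8.55% lower, 9 of the 22 were higher and 1 lower. Fn1, Col4a1 and Timp1 differed by 0.05, 0.04 and 0.02 at 1 h.

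Genes of division and death were also called, beside 1.91% of all genes called higher and 0.324% called lower. Of 17 CDK inhibitors and G1 regulators, 3 rose. Cdkn2b, the inhibitor p15 of the cyclin D kinases, read 9.66 and 9.45 against 10.22 and 10.30 (0.70 ± 0.06, 1.63-fold, adjusted p = 3.67e-08). Cdkn1b (p27) rose by 0.57 and Cdkn1a (p21) by 0.24, and the latter call was lost under 7 alternatives. The cyclin genes Ccnd1 and Ccne1 differed by 0.10 and −0.11. In the BCL2 family, 2 of 14 genes rose, both of the BH3-only kind that opens the way to apoptosis: Bcl2l11 (BIM) by 1.98 (3.94-fold) and Bmf by 1.41 (2.66-fold). Bbc3 and Pmaip1, BH3-only genes of the p53 response, were at 0.09 and 0.03, and the protective Bcl2 and Bcl2l1 at −0.04 and 0.00.

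**Figure D3:**
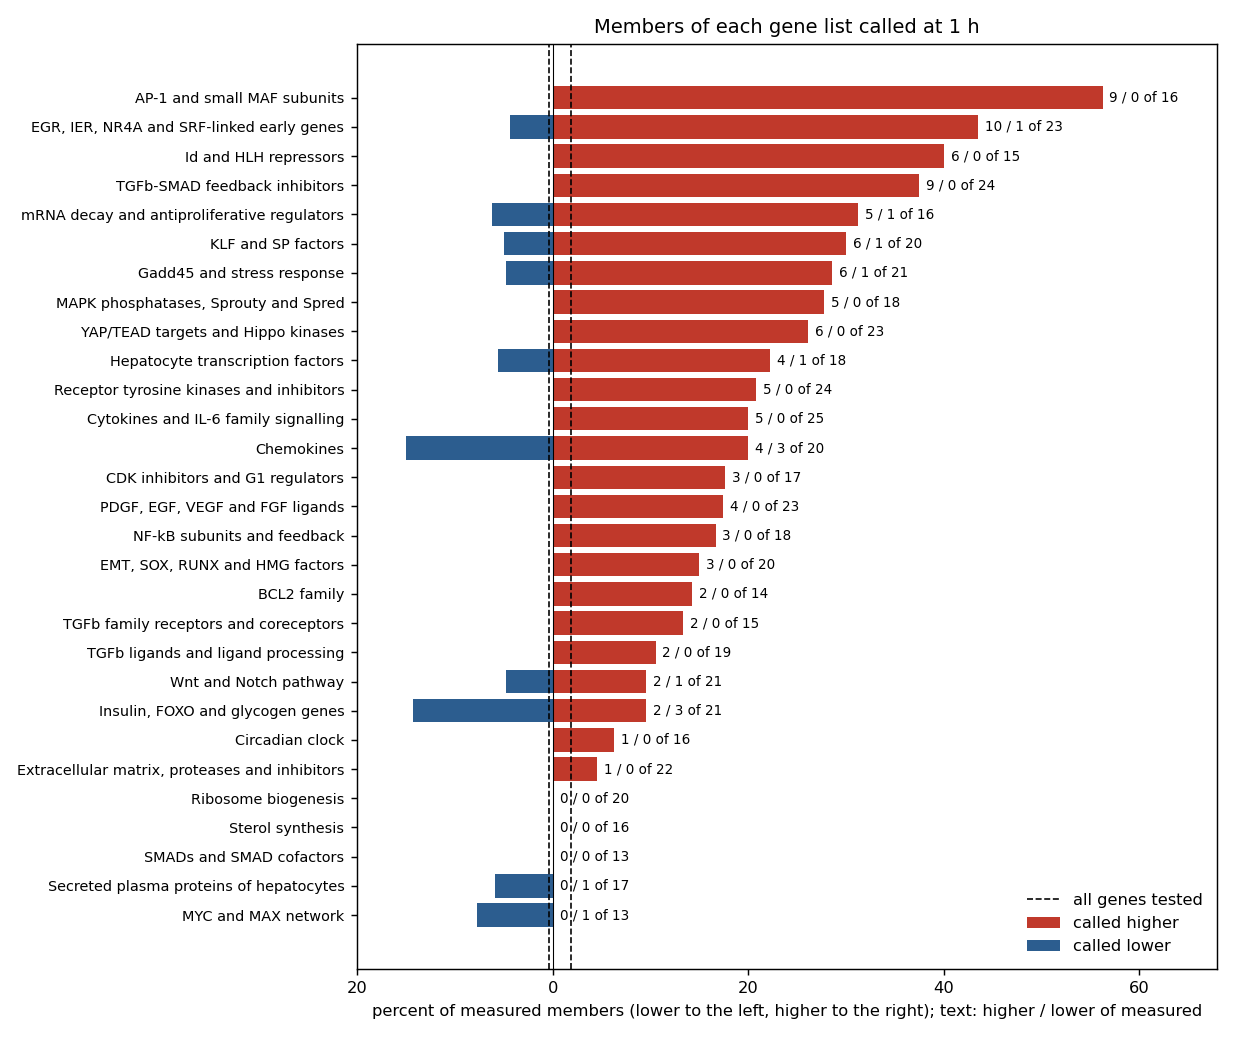
Percent of the measured members of the gene lists described in the text that were called higher (red, to the right) or lower (blue, to the left) at 1 h, with the counts beside each bar; dashed lines mark the 1.91% and 0.324% of all genes tested. The AP-1 list has 9 of 16 members higher, and the sterol synthesis and ribosome biogenesis lists have no called member.

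The 30 lists drawn up together held 573 measured genes, of which 108 were called higher and 14 lower. They were chosen with earlier results of these data known, so their shares are not evidence that these themes stand out. Outside the lists were 240 of the 348 rises and 45 of the 59 falls. Rises of 2-fold or more outside the lists, named after their values were seen, include Spsb1 (1.40), an adaptor of a ubiquitin ligase that targets the type II TGFβ receptor, Dram1 (1.25), a p53 target in autophagy, Cd40 (1.26), Camk2n1 (1.20), Zfp703 (1.18), Foxq1 (1.12) and Vasn (1.06), a membrane protein that binds TGFβ. Among the ranked rises outside the lists are Sertad4 (1.96), Irf2bpl (1.95) and Cldn4 (1.81).

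The falls were led by chemokines. Cxcl5 read 6.28 and 6.14 in untreated and 4.33 and 3.79 in treated arrays, a difference of −2.15 ± 0.23, or 4.44-fold lower (adjusted p = 1.15e-06). Cxcl2 read 7.11 and 7.10 against 4.87 and 5.08 (−2.13 ± 0.13, 4.39-fold lower). The treated values of both genes at 1 h were under the median of any array, and the background at such levels is not known. At 0 h Cxcl2 read 6.97 and 6.92 in the untreated and 6.49 and 6.80 in the treated arm (−0.30, not called), and Cxcl5 differed by 0.00. Cxcl3, the third of the group, was lower at 1 h (−0.54) and at 3 h (−2.68), and the call at 1 h was lost under 3 alternatives.

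Ppp1r3c brings protein phosphatase 1 to glycogen and favours glycogen storage. It read 8.63 and 8.19 against 6.81 and 6.87 (−1.57 ± 0.10, 2.96-fold lower, adjusted p = 2.46e-10). Txnip, the glucose-responsive inhibitor of thioredoxin, read 9.58 and 9.69 against 9.10 and 8.89 (−0.64 ± 0.07, 1.56-fold lower). Pdk4 and Pdp2, a kinase and a phosphatase that set the activity of pyruvate dehydrogenase in opposite directions, were lower (−0.56 and −0.50). Of 21 insulin, FOXO and glycogen genes, 3 fell, Ppp1r3c, Txnip and Irs1 (−0.22), and 2 rose, Bcl6 (1.03) and Ccng2 (0.30). The calls of Pdp2 and Irs1 were lost under 2 alternatives each.

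Myc, the growth-promoting transcription factor, read 10.11 and 10.07 in untreated and 8.93 and 8.90 in treated arrays, a difference of −1.18 ± 0.06, or 2.26-fold lower (adjusted p = 3.31e-12). It was the single called member of 13 genes of its network, with Max at 0.01 and Mxi1 at 0.28. None of the 20 ribosome biogenesis genes, a class that MYC activates, was called in either direction at 1 h, from which nothing is read, since only 0.324% of all genes were called lower and 1.91% higher. At 3 h, with 8.55% of all genes called lower, 8 of these 20 were lower and 1 higher, as were 12 and 0 of the 16 sterol synthesis genes, none of which was called at 1 h.

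Other falls included Gdap10, which read 6.71 and 7.02 against 5.84 and 5.89 (−1.01 ± 0.14). Its arms also lay apart at 0 h, at 6.95 and 6.98 against 6.30 and 6.53, but this difference (−0.55) was not called. Whether part of its fall precedes the treatment was not tested. Flrt3, a membrane protein of FGF signalling, read 8.67 and 8.56 against 7.79 and 7.71 (−0.86 ± 0.07). The deubiquitinase Otud1 read 6.65 and 6.27 against 5.78 and 5.72 (−0.71 ± 0.13), and without untreated replicate 1 its call was lost. Zfp54 read 6.75 and 6.66 against 5.90 and 6.22 (−0.65 ± 0.12), with the call lost without treated replicate 1 and with the mean of all probe sets. The duplicates of these genes lay closer together than the groups did, which follows largely from choosing called genes without overlap. In the Wnt and Notch list, 2 of 21 rose and 1 fell. The Notch ligand Dll1 read 5.78 and 5.69 against 6.44 and 6.39 (0.68 ± 0.13, 1.60-fold), Nkd1 was higher by 0.32, and the β-catenin target Axin2 was lower (−0.54). The calls of Nkd1 and Axin2 were lost under 7 and 1 of the alternatives. Another Wnt gene, Apcdd1, differed by −0.53 on the chosen probe set and by 0.02 with the mean of its probe sets. The remaining ranked falls ran from Zfp709 (−0.61) to Kcnk5 (−0.47), with Lratd2 (−0.59), Zfp296 (−0.58), Rassf9 (−0.56), Zfp763 (−0.53), Zfp53 (−0.50) and Zfp248 (−0.48) among them. All of these but Lratd2 and Zfp53 lost the call under at least 2 alternatives. Zfp709 was at low levels, at 3.99 and 3.98 in untreated and 3.19 and 3.56 in treated arrays at 1 h. Untreated cells at 0 h read 3.51 and 3.42 for this gene.

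The arrays at 3, 6 and 10 h, when 15.3%, 15.7% and 9.14% of all genes were called in either direction, show what became of the genes called at 1 h. Of the 348 rises, 262 were called higher at 3 h, 216 at 6 h and 135 at 10 h, while 20, 23 and 16 were called lower. Their median difference was 0.57 at 1 h, 0.60 at 3 h, 0.37 at 6 h and 0.17 at 10 h. The 58 rises of 2-fold or more declined earlier, from a median of 1.42 at 1 h to 1.27, 0.70 and 0.29. They were chosen for a high value at 1 h, which by itself favours lower values later. Of the 59 falls, 37 were still called lower at 3 h, 19 at 6 h and 9 at 10 h, with medians of −0.44, −0.32, −0.08 and −0.05.

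The effect at 3 h was tested against that at 1 h, a contrast in which 6.41% of all genes were called. Among the 58 rises of 2-fold or more, the effect was smaller at 3 h for 29, larger for 12 and not called different for 17. The sharpest reversals were those of Id3, from 1.80 to −0.74 (adjusted p of the difference 8.88e-13), and Hes1, from 1.86 to −0.40 (adjusted p = 3.51e-11). Fos, Hbegf and Socs3 also went from higher at 1 h to called lower at 3 h, with differences of −0.42, −0.55 and −0.42. Untreated Id3 read 8.95 and 9.19 at 0 h and 9.97 and 9.93 at 3 h, when treated Id3 read 9.17 and 9.26. The negative difference of Id3 is thus relative to untreated cells of the same hour and does not show a fall under the level at 0 h. Untreated Hes1 read 7.53 in both arrays at 0 h, and both treated arrays at 3 h were lower. Untreated Fos rose from 6.75 and 6.72 at 0 h to 7.02 and 6.99 at 3 h, when treated Fos read 6.66 and 6.51. Klf10 fell back from 3.57 to 1.52 and Id2 from 2.34 to 0.13. Snai1 went from 1.91 to 0.44 and Klf9 from 1.36 to 0.23.

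The genes whose effect was larger at 3 h were Ccn2 (2.64 to 3.19), Skil (2.27 to 3.06), Sertad4 (1.96 to 2.98), Fstl3, Cxcl10, Tnnt2, Camk2n1, Cd40, Spsb1, Fam210b, Klhdc8a and Dram1 (1.25 to 3.02). Pdgfb, at 3.19 and 2.98, and Edn1, at 2.03 and 2.24, were among those not called different. Feedback inhibitors lay on both sides: Smad7 (2.45 to 1.49), Smad6 (1.86 to 1.27) and Tgif2 (1.00 to 0.25) declined, while Skil and Fstl3 (1.34 to 1.99) increased. Among the falls, Myc went from −1.18 to 0.03 at 3 h and to 0.48 and 0.56 at 6 and 10 h, whereas Foxa2 went from −0.49 to −1.28 and Pdk4 from −0.56 to −1.28. Both effects share no arrays, since each time has its own untreated cultures.

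**Figure D4:**
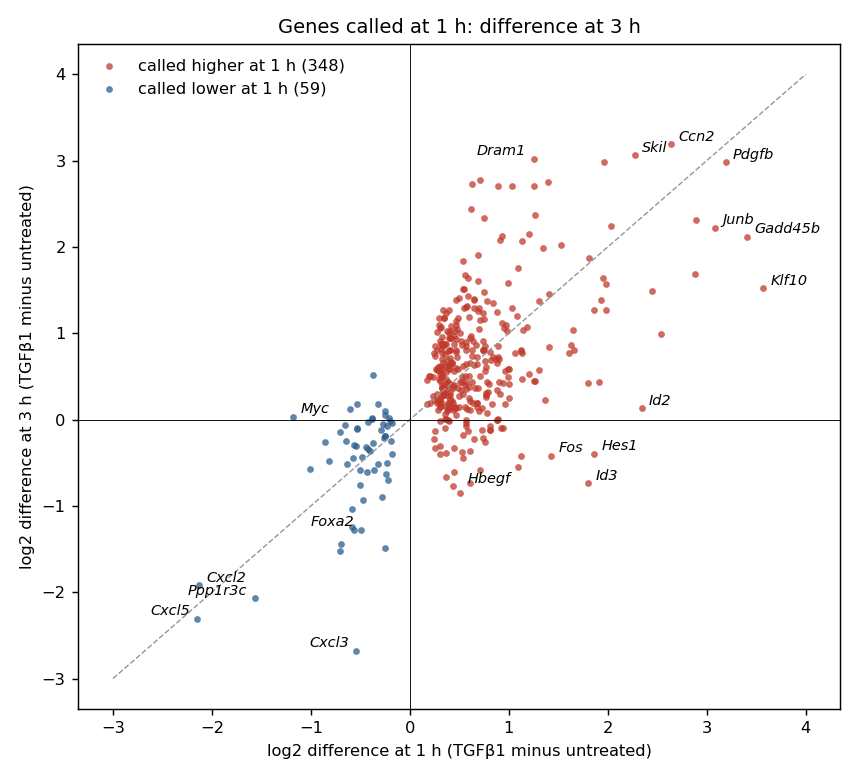
Log2 difference at 3 h (vertical axis) against that at 1 h (horizontal axis) for the 348 genes called higher (red) and the 59 called lower (blue) at 1 h; the dashed line marks equal differences. Klf10 (3.57 at 1 h, 1.52 at 3 h) lies below the line, Skil (2.27, 3.06) above it, and Id3, Hes1, Fos and Hbegf lie below 0 at 3 h.

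**Figure D5:**
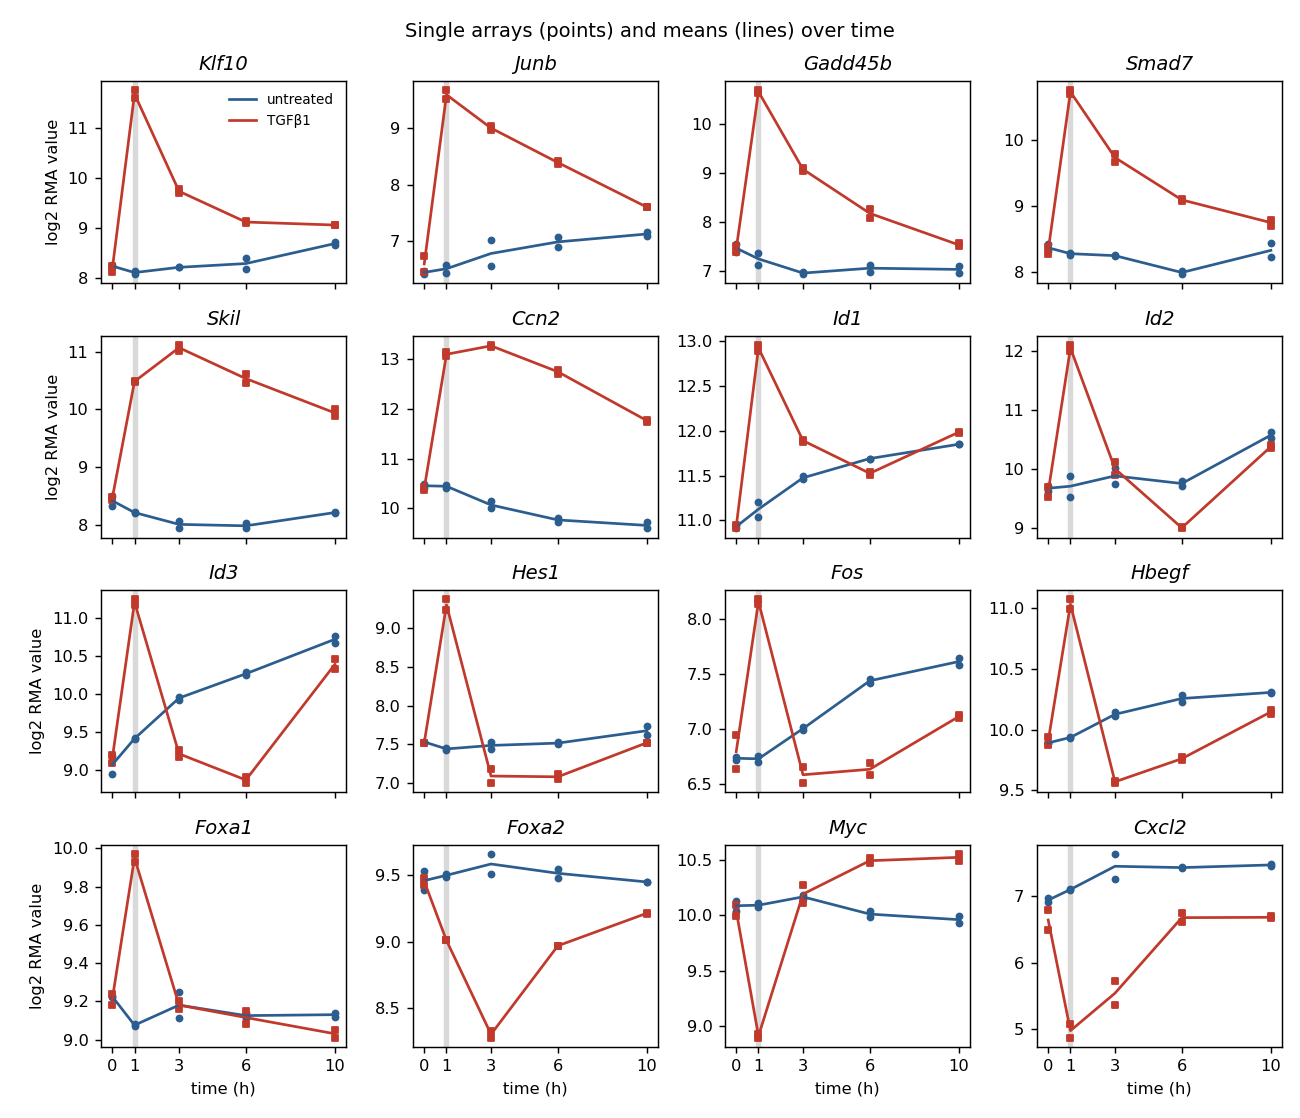
Log2 RMA values over time (h) for 16 genes chosen after their values were seen, with points for single arrays and lines for group means, blue for untreated and red for TGFβ1; a grey band marks 1 h. Klf10, Junb, Gadd45b and Smad7 are highest at 1 h, Skil and Ccn2 at 3 h, and the treated values of Id3, Hes1, Fos and Hbegf drop below the untreated ones by 3 h.

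The untreated cells also moved during the hour, though little: against untreated cells at 0 h, 19 genes (0.104%) were higher and 15 (0.0824%) lower. Genes of sterol synthesis were among the higher ones, named after their values were seen, with Hsd17b7 at 0.63, Hmgcs1 at 0.40, Fdft1 at 0.33 and Idi1 at 0.28. Of the 58 rises of 2-fold or more, 2 were called higher in untreated cells, Id3 (0.34) and Cd40 (0.37). Another 4 were called lower, Bmf (−0.49), Camk2n1 (−0.30), Cxxc5 (−0.36) and the unnamed gene model G530011O06Rik (−0.88). Bmf in treated cells at 1 h was therefore 0.92 above untreated cells at 0 h, less than the 1.41 above untreated cells of the same hour. This comparison and the TGFβ1 effect share the untreated arrays at 1 h. None of the 5 falls of 2-fold or more was called in untreated cells.

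Other probe sets of the same genes gave a second reading of the same RNA. For the rises, 214 genes had 396 further probe sets, of which 345 differed in the same direction, 138 were called higher and none was called lower, with p-values adjusted over all probe sets with 1 gene. For the falls, 31 genes had 54 further probe sets, of which 44 differed in the same direction, 4 were called lower and none was called higher. With the mean of all probe sets of a gene, the differences of Pdgfb, Csrnp1, Scx, Bmf, Csf1 and Zfp36l2 were 2.03, 0.91, 0.71, 0.57, 0.53 and 0.51, smaller than on the chosen probe set and still called.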

How the data were processed

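RNA of Hepa1-6 cultures was hybridised to 20 Affymetrix arrays, 2 for each of 10 groups. The authors deposited 1 log2 value per probe set and array, made with RMA per the submitters' processing notes; RMA normalizes by quantiles, so differences are relative to the other transcripts. The software version, chip description file and build were not given in the sources used here. The platform annotation gave 1 gene for 34945 of 45037 probe sets, several for 932 and none for 9160; the last 2 kinds were left out. The 18193 genes were named through the RefSeq table of GRCm38.p6, in which 162 symbols were not found.

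Group means were fitted over all 20 arrays with limma 3.58.1 in R 4.3.3 (eBayes with a trend, 10 residual degrees of freedom, Benjamini-Hochberg over all genes, threshold 0.05). The median SE was 0.13, and the number of arrays limits the precision. On simulated data of this design, 57.5% of rises and 55% of falls of 0.5 and 100% and 95% of those of 1 (log2) were called, with 14 of 17993 unchanged genes.

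Named were the 30 largest rises and 25 largest falls, up to 5 called members per list and direction, and all members of the ligand, receptor and SMAD lists. The largest rises and falls were ranked among called genes whose groups did not overlap, leaving out unnamed gene models. Other names were chosen after their values were seen. Values by array are given for the first 10 in each direction and for the leading member of lists with at least 3 calls. The members and the lists were chosen with earlier results of these data known. Same-numbered replicates deviated together with correlations of −0.06 to 0.09, so the numbers were not taken as pairs. The counts of 1 gene list are not reported here.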

Additional observations from a re-analysis of the deposited data

Results flagged for a closer look

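Of 30 genes chosen for values by array, 1 of which is not reported here, the effect of TGFβ1 at 3 h differed from that at 1 h for 21 when the difference itself was tested (limma, adjusted p under 0.05; both treated and both untreated arrays of each time enter), beside 6.41% of all genes. Most of them were chosen for the largest differences at 1 h, which by itself favours a smaller effect at 3 h. Among the transcripts that rose at 1 h, the effect was smaller at 3 h by a difference of −2.21 for Id2 (adjusted p = 9.59e-10), −2.05 for Klf10 (adjusted p = 3.51e-11), −1.55 for Gadd45g, −1.48 for Snai1, −1.29 for Gadd45b and −1.19 for Dusp2. The differences were −0.97 for Smad7, −0.88 for Foxa1, −0.86 for Junb, −0.82 for Efna1, −0.80 for Zfp36l2, −0.76 for Ier5l, −0.67 for Bcl3, and −0.57 for both Bhlhe40 and Cish (adjusted p = 4.22e-04 and 0.0203). The effect was larger at 3 h for Ccn2, by 0.55 (adjusted p = 1.02e-04), and for Cdkn2b, by 0.35 (adjusted p = 0.0109). Among the transcripts that fell at 1 h, the effect had moved upward by 3 h for Myc, by 1.20 (adjusted p = 2.56e-09), and for Flrt3, by 0.61 (adjusted p = 2.57e-04), and further down for Otud1, by −0.80 (adjusted p = 0.00752), and Ppp1r3c, by −0.50 (adjusted p = 0.0285).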

How the results depend on the processing

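When every probe set was tested, 525 probe sets were higher, beside the 348 genes, and 72 lower. The count of genes lower (59) was 92 after a further quantile normalization, 32 with the 4 arrays at 1 h alone, 169 against untreated cells at 0 h, and 31 at an adjusted p under 0.01. Leaving out 1 array at a time gave 283 to 311 genes higher and 31 to 65 lower, the 31 without treated replicate 1. With a replicate block, 381 genes were higher and 68 lower, and 0 of 142 named genes lost the call. Of these 142, 100 kept call and direction under each alternative that gave them a value (12, or 11 for genes under the median level) and 42 lost the call under at least 1; Apcdd1 reversed from −0.53 to 0.02 with the mean of all probe sets (adjusted p 0.979, the highest of its alternatives). The cause of these changes was not tested. Leaving out an array changes both the number of arrays and the values that enter. With 2 arrays a group, differences near 0.5 were often missed in the simulation, so a gene not called may still have changed.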

Other observations

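Genes whose symbol begins with Zfp and a number, most of which encode zinc finger proteins, made up 1.85% of the genes tested (336 of 18193) and 20.3% of those called lower at 1 h (12 of 59), beside 2.01% of those called higher (7 of 348). This group was picked after the values were seen and was not tested. The median difference of all 336 was −0.09, beside −0.01 for all genes, and 3.57% of them were called lower. The count of 12 was 20 after a further quantile normalization, 6 with the 4 arrays at 1 h alone, 1 without treated replicate 1 and 5 without untreated replicate 1. Many of these genes are close paralogs, so the probe sets may share signal between them, and which member moved is uncertain.

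Of 18145 genes placed on the RefSeq assembly, 15 neighbouring pairs were called at 1 h on both sides: 12 with both genes higher, 3 with both lower and 0 in opposite directions. Of all genes tested, 1.91% were called higher and 0.324% lower. The number of pairs that these shares alone would give was not worked out, so nothing is read from the counts. Pairs with both genes higher include Fos and Jdp2, Cxcl10 and Cxcl11, Cldn4 and Cldn3, Klhdc8a and Nuak2, and Id3 and E2f2. Those with both lower are Zfp53 and Zfp52, Zfp52 and Zfp948, and Cavin2 and Nabp1. Some pairs are paralogs (the claudins, the chemokines, the zinc finger genes), for which shared probe signal was not tested.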
